A study of Mus musculus with 8 samples.

Results

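The genes described here are Gcg, Ttr, Irx2 and Slc7a2, taken as alpha cell genes, Sst, taken as the delta cell gene, and Ppy and Pyy, taken as PP cell genes. They were found by their symbols in a gene-level RNA-seq table of whole mouse islets, and all 7 were present among 15985 symbols. Islets came from 8 mice aged 13 to 16 months on a mixed strain background, which the study's methods describe as males. The 4 control libraries came from mice without Cre whose genotypes were Sox9fl/fl (control 1), Sox9fl/+ (control 2), Sox9+/+ (control 3) and Sox9+/fl (control 4). The 4 libraries labelled knockout came from Ins-Cre;Sox9fl/fl mice, in which a Cre driven by the insulin promoter removes exons 2 and 3 of Sox9 from insulin-positive cells during embryogenesis. Since no control carried Cre, the effect of Cre and the effect of losing Sox9 cannot be told apart. The question put to the data was whether the hormone and identity genes of the islet cells that are not the target of the deletion differed when beta cells had lost Sox9.

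An islet is a small endocrine organ in which insulin-secreting beta cells sit beside glucagon-secreting alpha cells, somatostatin-secreting delta cells and pancreatic polypeptide-secreting PP cells. Glucagon raises blood glucose through the liver, somatostatin restrains the release of both insulin and glucagon from neighbouring cells, and pancreatic polypeptide belongs to the same peptide family as peptide YY and neuropeptide Y. Each hormone is made as a precursor, cut by prohormone convertases and stored in dense-core granules. In a bulk islet library, fewer cells of a type and less RNA per cell cannot be told apart.

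All positions are on GRCm38. Gcg encodes proglucagon and lies on chromosome 2 from 62474530 to 62483650 on the minus strand. Sst encodes preprosomatostatin and lies on chromosome 16 from 23889573 to 23890958 on the minus strand. Ppy (chromosome 11, 102099930 to 102101319) and Pyy (chromosome 11, 102106676 to 102107832), which encode pancreatic polypeptide and peptide YY, are neighbours on the minus strand, separated by 5357 bases with 0 annotated genes between them. Irx2 (chromosome 13, 72628820 to 72634198, plus strand) encodes an Iroquois homeodomain transcription factor that marks alpha cells among endocrine cells. Slc7a2 (chromosome 8, 40862396 to 40922308, plus strand) encodes a transporter of cationic amino acids such as arginine. Ttr encodes transthyretin, the carrier of thyroxine and of retinol-binding protein, which is abundant in alpha cells.

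The promoters of the hormone genes are shown because the levels of these genes, and the ratios between them, carry the results below. The sequences are the 250 bases before the RefSeq transcription start in build GRCm38.p6, written 5′ to 3′ on the gene's strand, and for Sst the 30 bases from position -59 to -30 before the start. Capitals mark a TATAAA run on either strand, or, in Sst, the palindrome TGACGTCA, the cyclic AMP response element bound by CREB family factors.
Gcg (chr2:62483654-62483903): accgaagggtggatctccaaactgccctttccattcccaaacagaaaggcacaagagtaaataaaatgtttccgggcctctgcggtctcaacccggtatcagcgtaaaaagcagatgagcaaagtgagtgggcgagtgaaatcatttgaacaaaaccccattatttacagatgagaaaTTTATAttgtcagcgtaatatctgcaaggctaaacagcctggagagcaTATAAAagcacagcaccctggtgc
Sst (chr16:23890874-23890903): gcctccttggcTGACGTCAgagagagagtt
Ppy (chr11:102101320-102101569): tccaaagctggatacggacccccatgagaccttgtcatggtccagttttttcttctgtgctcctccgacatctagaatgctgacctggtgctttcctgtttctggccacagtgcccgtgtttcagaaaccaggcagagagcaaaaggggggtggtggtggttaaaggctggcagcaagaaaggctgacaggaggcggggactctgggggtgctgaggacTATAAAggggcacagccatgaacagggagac
Pyy (chr11:102107833-102108082): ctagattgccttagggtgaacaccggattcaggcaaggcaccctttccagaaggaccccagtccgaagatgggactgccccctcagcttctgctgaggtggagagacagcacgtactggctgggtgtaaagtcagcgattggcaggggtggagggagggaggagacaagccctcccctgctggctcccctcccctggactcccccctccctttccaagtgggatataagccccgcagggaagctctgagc

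The TGACGTCA run of Sst lay at positions -48 to -41, and 508 of 32851 mouse promoter windows of the same 250 bases (1.55%) held this run. TATAAA lay at -24 to -19 in Gcg and at -31 to -26 in Ppy, and 4063 windows (12.4%) held it on either strand. Gcg also held it on the opposite strand at -72 to -67. Neither run was found in the printed Pyy window. The GENCODE model of Sst starts upstream of its RefSeq start, so the printed Sst stretch lies before the gene by RefSeq and inside it by GENCODE. These letter matches are descriptions of sequence and not measured binding sites.

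The values are reads assigned to each gene by the authors' pseudoalignment and divided by a size factor per library, and they are called normalized values here. The libraries held an estimated 13098000 to 26165000 reads in the controls and 11021000 to 19110000 in the libraries labelled knockout. Sox9 was at 23.3, 37.3, 13.4 and 13.3 in controls 1 to 4 and at 36.6, 16.4, 20.6 and 11.7 in knockouts 1 to 4, a log2 difference of -0.02 (SE 0.44, adjusted p = 0.989 by limma over all genes). These gene-level values sum reads over all exons and all cells of the islet, so they do not check the label, and the group is called "labelled knockout" throughout. Control 3 stood apart from the males that the methods describe, with a summed Y-linked value of 117 against 2367 to 2712 in the other controls and 2388 to 2549 in the libraries labelled knockout, so results are also given without it. Acinar marker genes, from exocrine tissue that adheres to isolated islets, were higher on average in the libraries labelled knockout for 16 of 16 markers. Of all genes, 55.1% had a negative log2 difference. The log2 differences of the markers ran from 0.19 (Bhlha15) to 1.31 (median 0.95, none called, none at 0). Their sums were 35424 to 177306 in the controls and 94685 to 252703 in the labelled knockouts. Immediate early genes such as Fos and Fosb summed to 45281 to 156555 in the controls and 195647 to 353664 in the labelled knockouts, without overlap. An unadjusted limma p under 0.05 was found for 10 of 10, against 10.7% of all genes. Their median log2 difference was 1.96, against -0.03 over all genes, and none was called. The part of the immediate early genes in the values below was not tested.

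Among the 7 genes Gcg was the most abundant and the most variable alpha gene. Its normalized value was 236552, 346858, 416374 and 211216 in controls 1 to 4 and 258325, 266988, 164181 and 201432 in knockouts 1 to 4. Controls 2 and 3 were above all other libraries, controls 1 and 4 lay within the range of the libraries labelled knockout, and the groups overlapped. Gcg took 1.62% ± 0.548 (SD, n = 8) of a library, from 0.918% in knockout 3 to 2.65% in control 3. The log2 difference, labelled knockout minus control, was -0.42 (SE 0.23, 95% interval -0.92 to 0.09, adjusted p = 0.561, limma). It was -0.24 without control 3 and -0.07 (95% interval -0.54 to 0.40) when a score of the acinar genes was a covariate. The part of acinar RNA in the Gcg difference was not otherwise tested.

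Ttr, the most abundant alpha gene after Gcg, was at 24926, 36184, 32308 and 21485 in controls 1 to 4 and at 21650, 22666, 15803 and 21823 in knockouts 1 to 4. Knockout 3 was the lowest library, controls 2 and 3 were again the highest, and control 4 lay below 3 of the 4 libraries labelled knockout. Its log2 difference was -0.47 (SE 0.18, 95% interval -0.86 to -0.09), with an unadjusted p = 0.0200 and an adjusted p = 0.365 by limma, so that it did not pass. Of all 15960 genes tested, 10.7% had an unadjusted p under 0.05. The Ttr difference was -0.41 without control 3, and -0.18 (95% interval -0.52 to 0.17) once the acinar score was added as a covariate.

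Irx2 was a low gene, at 74.1, 53.5, 66.8 and 56.3 in controls 1 to 4 and at 56.7, 62.8, 37.7 and 41.6 in knockouts 1 to 4. Knockouts 3 and 4 were below every control, while knockouts 1 and 2 lay within the control range. The log2 difference was -0.35 (SE 0.23, 95% interval -0.86 to 0.16, adjusted p = 0.630, limma). With the acinar score as a covariate it was -0.36, close to the value without it.

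Slc7a2 was at 5034, 4360, 5336 and 4642 in controls 1 to 4 and at 4281, 5462, 5257 and 4768 in knockouts 1 to 4. The groups interleaved, and the coefficient of variation over the 8 libraries was 9.17%, against 31.4% for Gcg, 26.6% for Ttr and 21.7% for Irx2. The log2 difference was 0.03 (SE 0.11, 95% interval -0.22 to 0.28, adjusted p = 0.958, limma). Its level did not follow that of Gcg over the libraries (r = -0.04, and 0.30 with libraries scaled to the same total). For Ttr these r values were 0.91 and 0.93. Slc7a2 is therefore described here by name and not as a measure of alpha cells, although it counts in the alpha cell list below.

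Sst was at 26841, 43535, 49574 and 45076 in controls 1 to 4 and at 37503, 53644, 35870 and 29290 in knockouts 1 to 4. The lowest library was a control and the highest was labelled knockout. The log2 difference was -0.08 (SE 0.22, 95% interval -0.56 to 0.40, adjusted p = 0.936, limma), and its sign turned without control 3 (0.02), without knockout 4 (0.05) and in the fit that held the acinar score (0.21, 95% interval -0.28 to 0.70).

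With the deposited size factors Ppy was the steadiest of the 7 genes, with a coefficient of variation of 7.28%. As a share of the library, Slc7a2 (0.0299% ± 0.00298) varied less relative to its mean than Ppy (0.313% ± 0.0343, SD, n = 8 each). Ppy was at 45611, 53016, 50456 and 56145 in controls 1 to 4 and at 48551, 55279, 51367 and 47509 in knockouts 1 to 4. All 4 libraries labelled knockout lay inside the control range, and the log2 difference was -0.02 (SE 0.11, 95% interval -0.26 to 0.22, adjusted p = 0.973, limma). Its sign turned to 0.07 when each library was scaled to the same total.

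Pyy, the neighbour of Ppy, was at 18856, 21361, 32821 and 22421 in controls 1 to 4 and at 26099, 30025, 24115 and 21766 in knockouts 1 to 4. Control 3 was the highest library, and 3 of the libraries labelled knockout were above the other 3 controls. The log2 difference was 0.12 (SE 0.17, 95% interval -0.25 to 0.48, adjusted p = 0.845, limma), and with a library left out it ran from 0.02 (without control 1) to 0.28 (95% interval -0.03 to 0.59, without control 3).

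**Figure D1:**
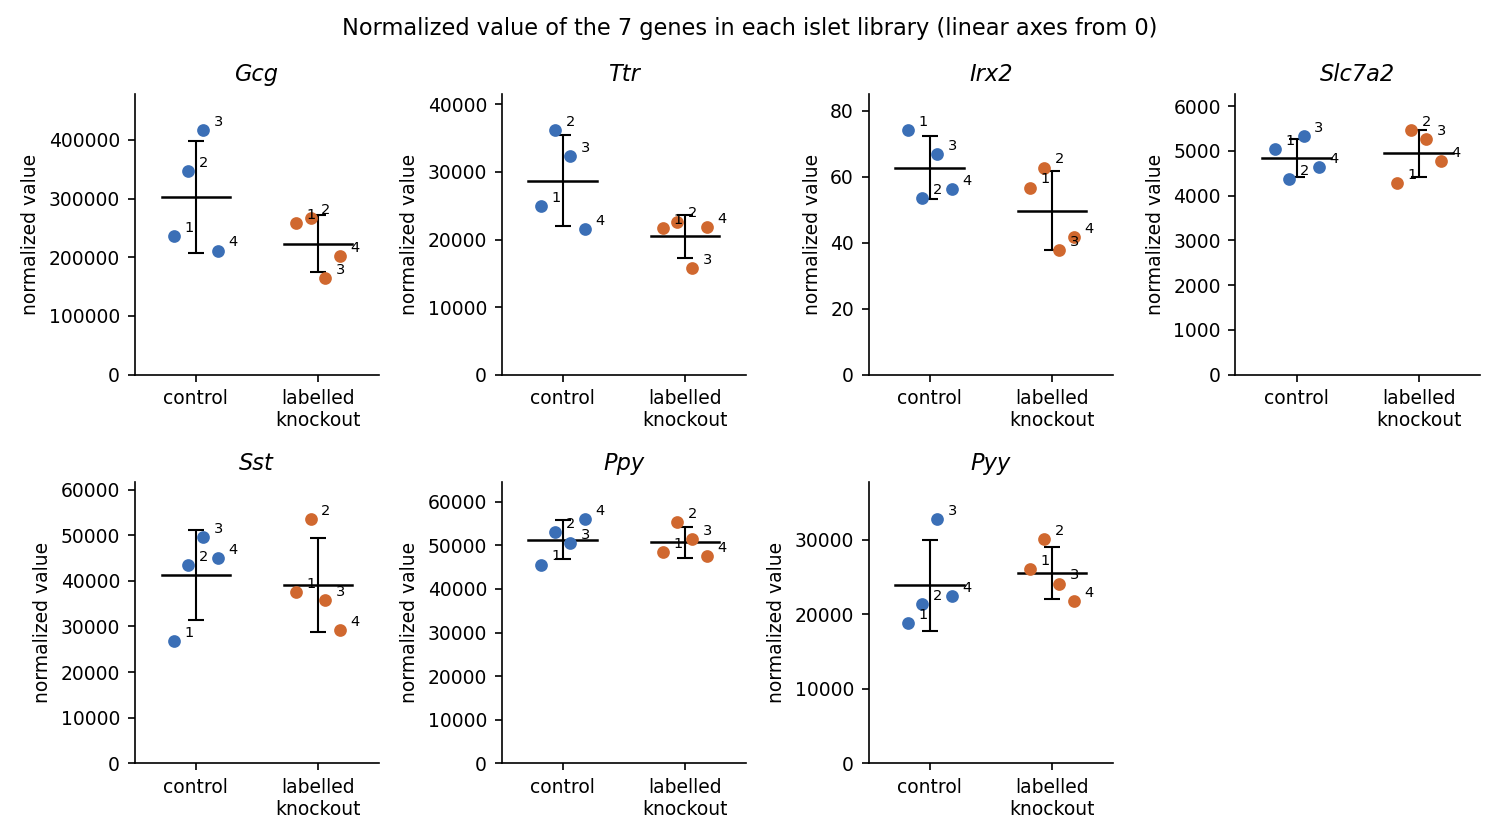
Normalized value (linear axis from 0) of each gene in the 4 control and 4 labelled knockout libraries; points are libraries with their replicate number, horizontal lines are means and bars are 1 SD. Controls 2 and 3 set the high end of Gcg and Ttr, Ppy and Slc7a2 are nearly level, and the groups overlap in every panel.

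Of the 15960 genes tested, 9 were called at an adjusted p under 0.05 (0.0564%), of which 6 (0.0376%) had the higher mean in the labelled knockouts and 3 (0.0188%) the lower. When each library was scaled to the same total, 10 were called, 10 higher and 0 lower, and with hormone and acinar genes left out of the total 4 were called, 4 higher and 0 lower. None of the 7 genes was called in the main fit (0 of 7), and 1 of them, Ttr, had an unadjusted p under 0.05. The groups did not overlap for 0 of the 7 genes, against 6.35% of all genes. The log2 difference was negative for 5 of the 7 genes, with a median of -0.08, against 55.1% of all genes and a median of -0.03. The intervals of the main fit show which differences these libraries allow under the deposited size factors. For Ppy and Slc7a2 they reached no further than 0.28 from 0 on the log2 scale. Other fits reached further, for example -0.41 for Ppy with quantile normalization and 0.34 for Slc7a2 with the same total. For Gcg, Ttr and Irx2 the main intervals reached -0.92, -0.86 and -0.86. Differences of that size in these alpha genes thus lay within the intervals that 4 mice a group allow.

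**Figure D2:**
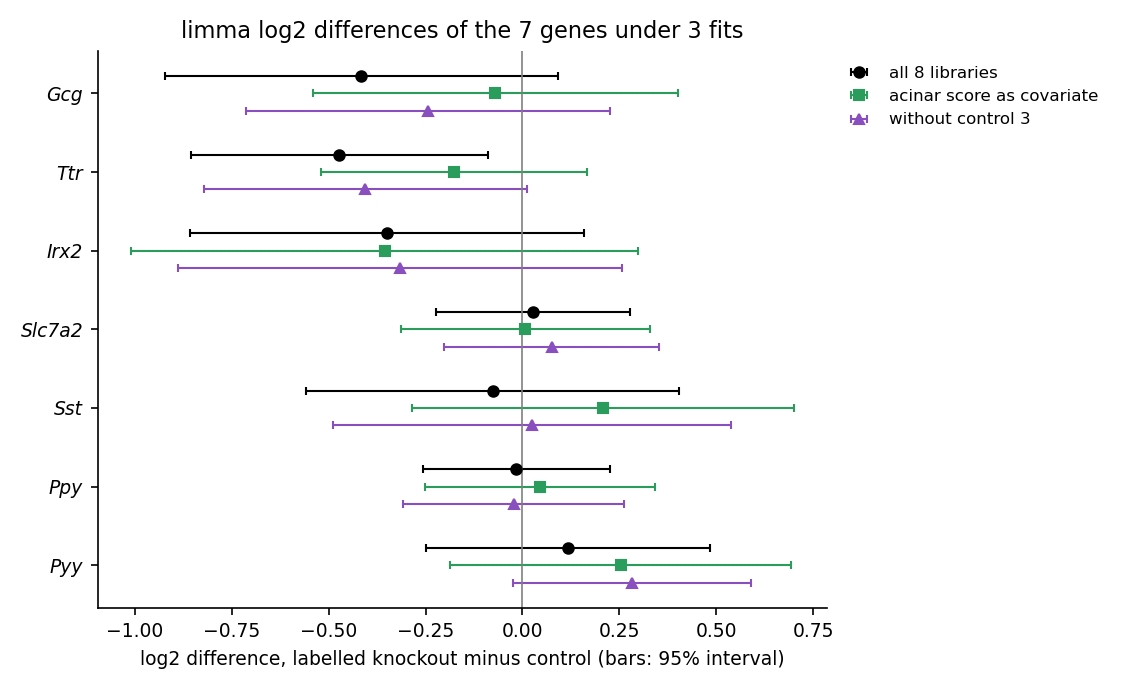
limma log2 difference (labelled knockout minus control) of each gene with its 95% interval, from all 8 libraries (black circles), with the acinar score as a covariate (green squares) and without control 3 (purple triangles). The Gcg estimate runs from -0.42 to -0.07 across the fits, while Ppy and Slc7a2 stay near 0.

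To compare levels between genes, normalized values were divided by the length of the longest coding transcript in kb. The order per kb was Gcg, Ppy, Sst, Pyy, Ttr, Slc7a2 and Irx2 in 8 of 8 libraries. Over the libraries, Gcg spanned 150902 to 382697 per kb and Ppy spanned 91223 to 112290 per kb, with no overlap. Sst (37228 to 74402 per kb) and Pyy (33974 to 59137 per kb) were the only neighbours in the order whose ranges over the 8 libraries overlapped. With these lengths Sst was above Pyy within each library, closely so in knockout 4 (40625 against 39219 per kb). Coding transcripts of Pyy ran from 529 to 555 bases, and the shorter length was not tried, so the order of Sst and Pyy rests on the length chosen. Slc7a2 spanned 541 to 691 per kb with its longest transcript of 7.91 kb, and 1164 to 1486 per kb with a coding transcript of 3.677 kb, which left its place in the order. Irx2, the only transcription factor of the 7, was at 14.4 to 28.2 per kb.

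Set against the insulin genes, the hormones of the other cells were a small part of the hormone RNA. Of the summed signal per kb of 6 hormone genes, Ins2 made up 72.5%, Ins1 20.2%, Gcg 3.99%, Ppy 1.67%, Sst 0.915% and Pyy 0.739% on average over the 8 libraries. These shares rest on the longest coding transcript, and other lengths were not tried for the hormone genes. Annotated coding transcripts ran from 259 to 918 bases for Ins2 and from 654 to 1088 bases for Gcg. Gcg, Ppy, Sst and Pyy together made up 7.39% ± 2.52 (SD, n = 4) in the controls and 7.23% ± 2.04 (SD, n = 4) in the libraries labelled knockout. The extremes were 5.15% in knockout 3 and 10.9% in control 3, and each group spanned most of this range. The insulin genes differed by log2 -0.12 (Ins1, adjusted p = 0.848, limma) and -0.24 (Ins2, adjusted p = 0.649, limma).

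**Figure D3:**
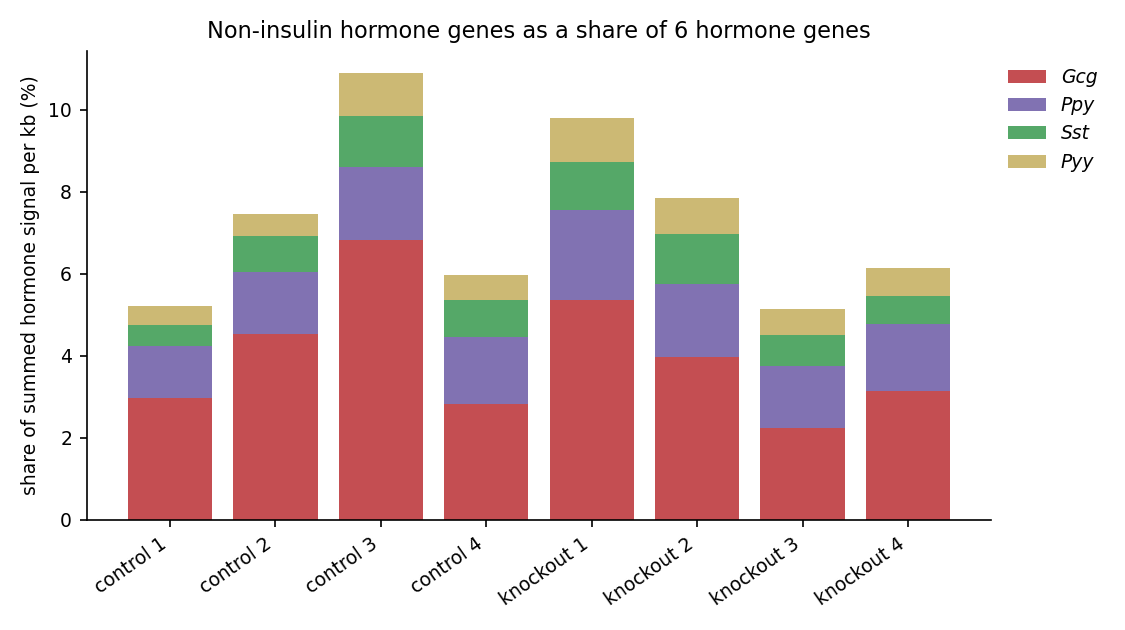
Share of the summed signal per kb of 6 hormone genes (%) taken by Gcg, Ppy, Sst and Pyy in each library; Ins1 and Ins2 make up the rest. Control 3 and knockout 1 hold the tallest bars, at 10.9% and 9.80%, and Gcg makes most of the difference between libraries.

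Ratios between hormones within a library do not depend on its size factor. The ratio of Gcg to the sum of Ins1 and Ins2 was 0.0362, 0.0564, 0.0878 and 0.0345 in controls 1 to 4 and 0.0682, 0.0494, 0.0270 and 0.0385 in knockouts 1 to 4. It spanned 3.26-fold over the 8 libraries and did not separate the groups (log2 difference -0.20, exact two-sided permutation p = 0.657). The difference turned to 0.07 without control 3 and to 0.02 without knockout 3.

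The ratio of Gcg to Pyy came closest to separating the groups. It was 12.5, 16.2, 12.7 and 9.42 in controls 1 to 4 and 9.90, 8.89, 6.81 and 9.25 in knockouts 1 to 4. Knockouts 2 to 4 were below every control and knockout 1 was above control 4. The log2 difference was -0.53, with an exact two-sided permutation p of 0.0571 and 0.669 after Benjamini-Hochberg adjustment over the 13 ratios tested. With a library left out the difference ran from -0.67 (without control 4) to -0.41. Control 4 was the only control below knockout 1, so leaving it out separates the groups and fixes the exact permutation p at 0.0286. This p is the smallest that 3 against 4 libraries can give (adjusted p of 0.371), and it adds no support.

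Gcg also had a lower mean ratio to the other hormones in the libraries labelled knockout, without passing. Gcg to Sst averaged 7.47 ± 1.89 (SD, n = 4) in the controls and 5.83 ± 1.23 (SD, n = 4) in the labelled knockouts (exact permutation p = 0.200). Gcg to Ppy averaged 5.94 ± 1.92 and 4.40 ± 0.914 (SD, n = 4 each, exact permutation p = 0.257). Among delta and PP hormones, Sst to Ppy averaged 0.799 ± 0.162 and 0.764 ± 0.151 (SD, n = 4 each, exact permutation p = 0.743). Ratios that share a hormone are not independent of each other.

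Ppy to Pyy was 2.42, 2.48, 1.54 and 2.50 in controls 1 to 4 and 1.86, 1.84, 2.13 and 2.18 in knockouts 1 to 4. Control 3 was the lowest library, and the other 3 controls were above all 4 libraries labelled knockout. With all libraries the log2 difference was -0.13 (exact permutation p = 0.571). Without control 3 it was -0.31. Leaving out that library separates the groups, so the exact permutation p takes its smallest possible value, 0.0286 (0.371 after adjustment over the 13 ratios). This p adds nothing to the order of the values given above.

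Of the alpha genes set against Gcg, Ttr held the steadiest ratio. Ttr to Gcg was 0.105, 0.104, 0.0776 and 0.102 in controls 1 to 4 and 0.0838, 0.0849, 0.0963 and 0.108 in knockouts 1 to 4. It spanned 1.40-fold, whereas Irx2 to Gcg spanned 2.03-fold and Slc7a2 to Gcg 2.55-fold over the same libraries. None of these 3 ratios passed the test between the groups (exact permutation p = 0.743 for Ttr, 0.800 for Irx2 and 0.200 for Slc7a2).

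**Figure D4:**
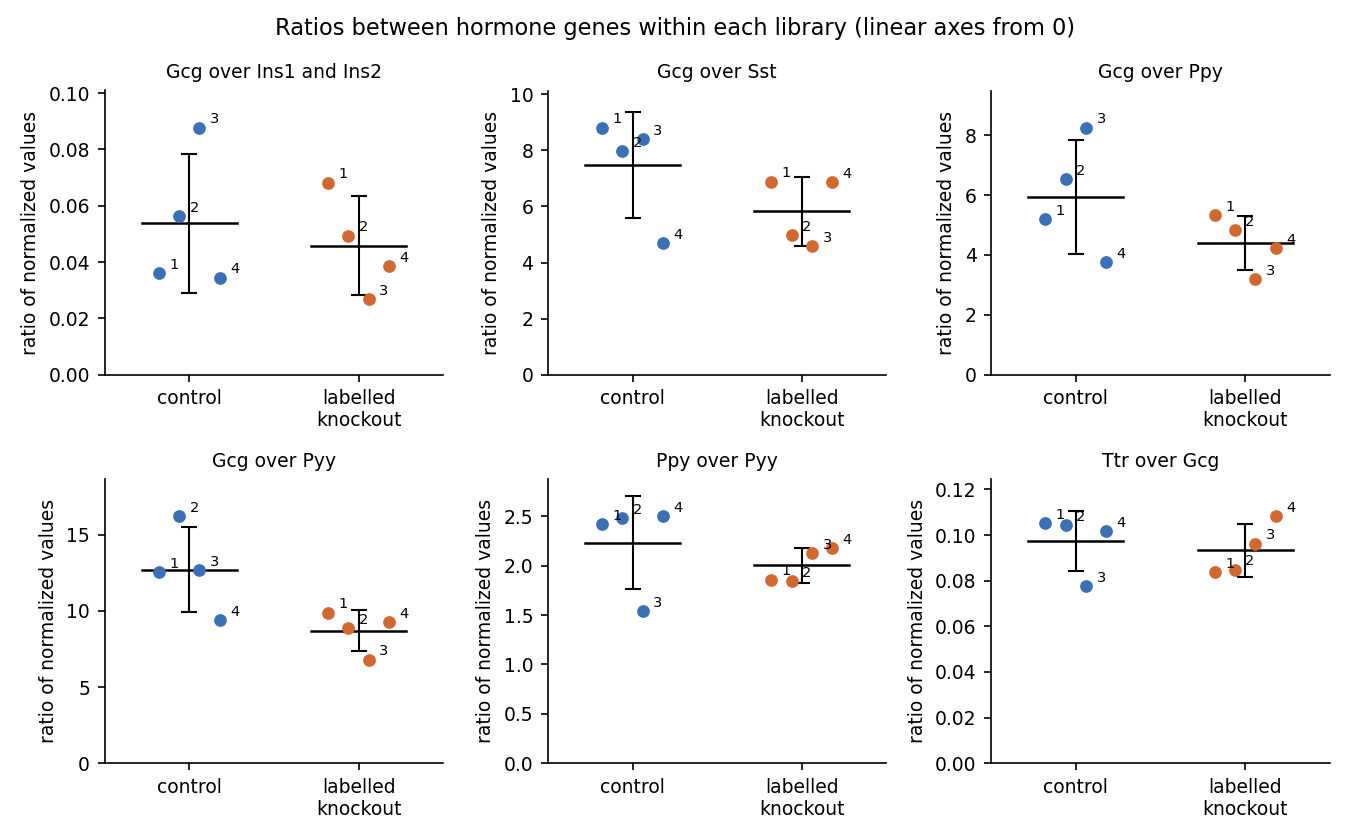
Ratio of normalized values within each library (linear axis from 0) for 6 of the 13 ratios tested; points are libraries with their replicate number, horizontal lines are means and bars are 1 SD. Gcg over Pyy is lower in 3 of the 4 labelled knockouts than in any control, and Ttr over Gcg keeps a narrow range.

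Over the 8 libraries, Gcg and Ttr moved together most closely of the 21 pairs of the 7 genes. Their log2 values had a Pearson r of 0.91 (exact permutation p = 0.00367, 0.0771 adjusted over 21 pairs) and a Spearman rho of 0.81 (exact permutation p = 0.0218). The r was 0.83 without the pair of libraries farthest from the median of Gcg (control 3 and knockout 3), 0.89 with each group centred on its own mean, and 0.93 (adjusted permutation p = 0.00885) with libraries scaled to the same total. All genes of a library share its size factor and its mix of cells.

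Sst and Ppy had an r of 0.83 (exact permutation p = 0.0121, adjusted 0.127) and a rho of 0.76 (exact permutation p = 0.0368). The relation rested in part on control 1 and knockout 4, since r was 0.55 without them. Scaled to the same total, its r was 0.88 with an adjusted permutation p of 0.0424. Sst and Pyy had an r of 0.75 (exact permutation p = 0.0350, adjusted 0.245) and a rho of 0.71, and r was 0.53 without the same libraries. Ppy and Pyy, although neighbours in the genome, had an r of 0.36 (exact permutation p = 0.384, adjusted 0.895) and a rho of 0.31. These values depended on the scaling. Scaled to the same total, r was 0.75 for Ppy and Pyy (adjusted permutation p = 0.117) and 0.82 for Sst and Pyy (adjusted permutation p = 0.0786). For Gcg and Slc7a2, r was -0.04 (exact permutation p = 0.925, adjusted 0.971) and rho was 0.10. Their r was 0.30 when scaled to the same total (adjusted permutation p = 0.558). With deposited size factors 0 of the 21 pairs had an adjusted p under 0.05.

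**Figure D5:**
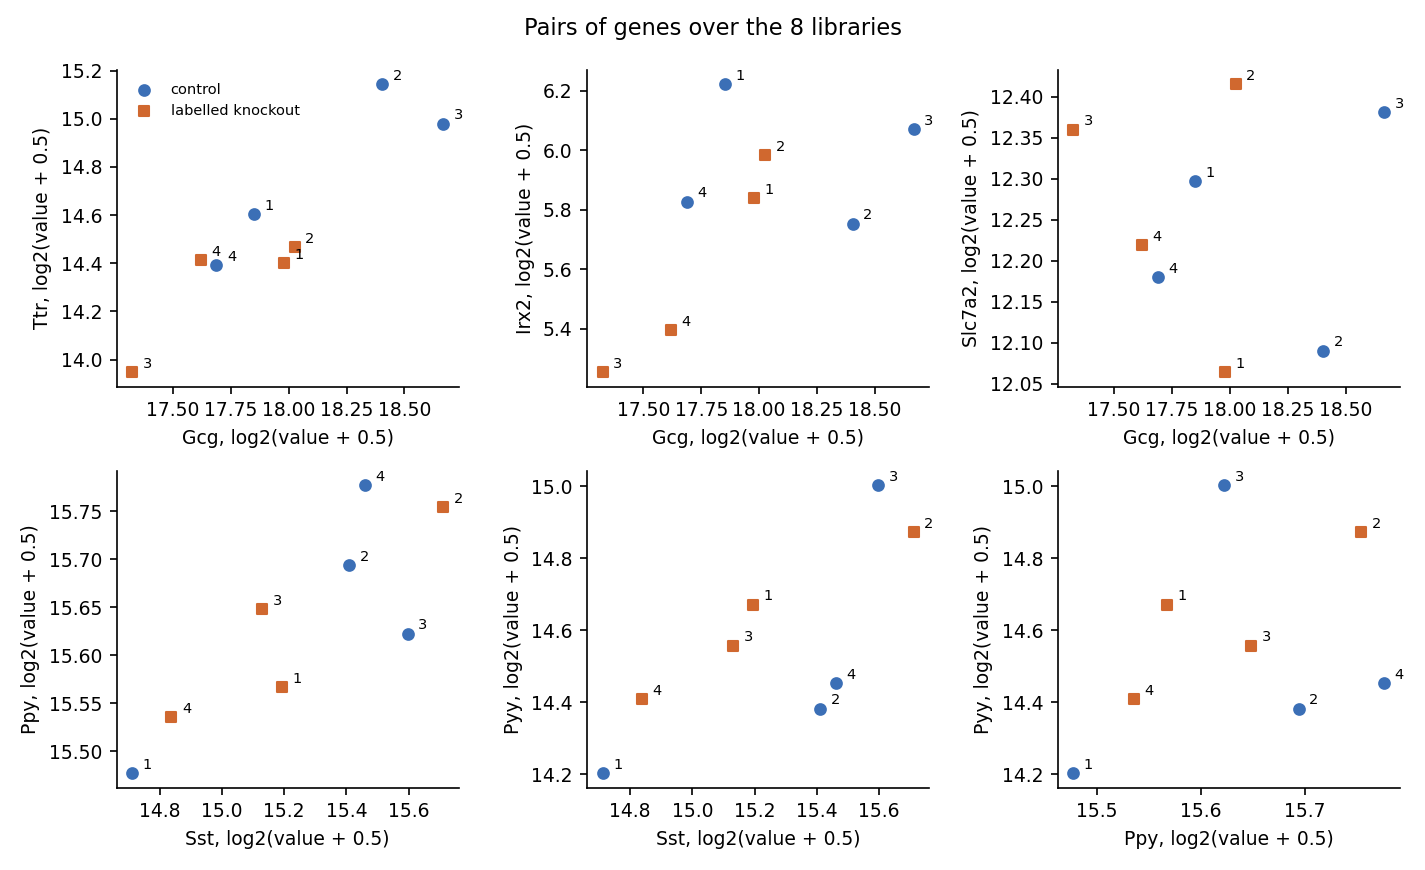
log2(normalized value + 0.5) of pairs of genes, one point per library (blue circles, control; orange squares, labelled knockout; numbers, replicates). Gcg and Ttr lie along a line (r = 0.91), and Sst rises with Ppy and Pyy (r = 0.83 and 0.75). Gcg and Slc7a2 show no relation in the plotted values (r = -0.04).

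Genes whose log2 values followed each member most closely were sought among 11461 genes with a mean normalized value of at least 50, by Pearson r over the 8 libraries and as a description only. For Gcg they included Sorcs2, a sortilin-family receptor (r = 0.96), and Kcnk3, a two-pore-domain potassium channel (0.94). For Ttr they were Basp1 (0.96), Supt3 (0.95) and Zbtb21 (0.94), and for Irx2 Plekhm1 (0.97), Golt1a (0.97) and Ffar4 (0.97), a receptor for long-chain fatty acids. For Sst they were Acbd4 (0.95), Ptprz1 (0.93), a receptor tyrosine phosphatase, and Sharpin (0.92). For Slc7a2 they were Tctex1d2 (0.96), Kcna2 (0.95) and Tecr (0.95), for Ppy Rabl2 (0.95), Cwf19l1 (0.94) and Dcaf15 (0.93), and for Pyy Zmym5 (0.94), Tenm1 (0.93) and Xpo6 (0.92). Over 8 libraries and this many genes, r values of such size are reached for every member, Slc7a2 included.

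The wider lists of the same cell types gave no called gene in the main fit. Of 10 alpha cell genes, the 4 alpha members included, 0 passed and 7 had a negative log2 difference (median -0.30, against -0.03 over all genes). The median of the alpha list was -0.28 without control 3, -0.18 without knockout 3 and -0.16 in the fit that held the acinar score, where the median of all genes was -0.05.

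Of 6 delta cell genes 0 passed and 4 were negative (median -0.19). Ghsr, the ghrelin receptor of delta cells, had a log2 difference of -0.51 (SE 0.27, adjusted p = 0.542, limma), Rbp4, a retinol-binding protein, -0.31 (adjusted p = 0.547), Ffar4 -0.32 (adjusted p = 0.611) and Hhex, a delta cell homeodomain factor, 0.22 (adjusted p = 0.772). The list's median turned to 0.07 with the acinar score as a covariate. Of 4 PP and epsilon cell genes 0 passed. Ghrl, which encodes ghrelin, the hormone of epsilon cells, was at 24.5, 72.9, 63.3 and 53.0 in controls 1 to 4 and at 33.1, 13.4, 24.2 and 21.3 in knockouts 1 to 4. Control 1 lay among the libraries labelled knockout, and the log2 difference was -1.16 (SE 0.38, adjusted p = 0.306, limma). Npy had a log2 difference of -0.09 (adjusted p = 0.954, limma).

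The genes through which these hormones are made and sensed gave no called gene either. All 10 prohormone processing and granule genes had a negative log2 difference (median -0.17), against 55.1% of all genes and a median of -0.03, and 0 passed. With libraries scaled to the same total 8 of the 10 were negative (median -0.08, against 0.05 over all genes), and with quantile normalization 8 of 10 (median -0.14). Scg2, the granule protein secretogranin II, was at 165179 ± 50950 in the controls and 113128 ± 26468 (SD, n = 4 each) in the labelled knockouts, a log2 difference of -0.53 (SE 0.22, adjusted p = 0.429, limma). Scg5, a chaperone of the convertase PC2, Pcsk1, which encodes the convertase PC1/3, and Cpe, which encodes carboxypeptidase E, had log2 differences of -0.22, -0.22 and -0.18. Of 12 hormone receptors 7 were tested and 0 passed. Gcgr, the glucagon receptor, had a log2 difference of 0.31 (SE 0.13, adjusted p = 0.405, limma), Sstr2, a somatostatin receptor, -0.65 (SE 0.34, adjusted p = 0.531, limma), Gipr, the receptor for the gut hormone GIP, 0.74 (adjusted p = 0.167, limma) and Glp1r, the receptor for the Gcg product GLP-1, 0.14 (adjusted p = 0.874, limma).

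Of 12 islet cell fate regulators, 11 were tested and 0 passed. Their log2 differences ran from -1.03 to 0.64, and 5 of the 11 were negative. The median was 0.09, against -0.03 over all genes. The values of Rfx6, a factor needed to form endocrine cells, did not overlap between the groups (log2 difference 0.48, SE 0.11, adjusted p = 0.129, limma). Foxa2 (0.64, adjusted p = 0.226) and Isl1 (0.36, adjusted p = 0.288), transcription factors shared by several islet cell types, were also without overlap. Of all genes tested, 6.35% were without overlap. Of 10 beta cell markers 0 passed, 6 were negative and the median was -0.10. The beta factors Nkx6-1 and Pdx1 had log2 differences of 0.52 and 0.41 (adjusted p = 0.116 and 0.330, limma; with libraries scaled to the same total Nkx6-1 passed at 0.61, adjusted p = 0.0408), Mafa one of 0.48 (adjusted p = 0.367) and G6pc2, a glucose-6-phosphatase of beta cells, one of -0.52 (adjusted p = 0.531).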

How the data were processed

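RNA from whole islets of 8 mice was sequenced by the authors as stranded libraries, which they trimmed with cutadapt 1.13, assigned to GRCm38 transcripts with kallisto 0.46.1 and summed per gene with sleuth. The deposited table holds the signal per gene and library, that is estimated reads divided by sleuth size factors, and the authors' own test columns, which were not used. Of 15985 symbols, 216 had more than 1 line. Lines that differed in value (62 symbols) were summed. Depth was estimated from the spacing of low values, and 58.7% to 65.7% of these were whole reads within 0.05, too few to recover counts for a count test. limma 3.58.1 (R 4.3.3) was fitted to log2(value + 0.5) with group as the only term, a trended robust prior and Benjamini-Hochberg adjustment over the 15960 genes that exceeded a value of 1 in 4 or more libraries. The pseudocount understates changes of low genes. Ratios were tested by exact permutation over 70 splits and correlations over 40320 pairings. The acinar score is the mean, over the acinar markers, of the log2 value minus that marker's mean over the libraries. Genes other than the 7 members are named by rule: Sox9, the insulin genes, up to 4 per related list by smallest p, and 3 most-like genes per member. A few genes that this rule names are not reported here. Members and lists were chosen with earlier results of these data known. The labels do not say how mice were allotted to batches, and p-values measure the spread between these samples. Promoters are from RefSeq and gene models from GENCODE M21. The fits were tested on simulated data. Alternatives were pseudocounts of 0.1, 1 and 5, filters, scalings, covariates and leaving out each library.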

Additional observations from a re-analysis of the deposited data

Results flagged for a closer look

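Within groups of 4 libraries, 46 sets of values were screened for a library far from the other 3, and 4 of the 46 were flagged. Chance alone flags about 1 in 20 sets, so some of the 4 can arise by chance. Sets that share a gene or a library are not independent. Ins1 in control 3 was at 1134311, against 1457949 to 1485551 in the other controls. The ratio of Ppy to Pyy in control 3 was 1.54, and the ratio of Ttr to Gcg in the same library was 0.0776, each below the other 3 controls. Ttr in knockout 3 was at 15803, below the 21650 to 22666 of the other libraries labelled knockout. Control 3 accounts for 3 of the 4 values and is also the library whose summed Y-linked value was 117.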

How the results depend on the processing

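None of the 7 genes was called under any alternative run. The 9 genes called in all became 14 with a pseudocount of 1 or 5, 4 with libraries scaled to the same total without hormone and acinar genes, 17 with quantile normalization, 1 with limma without a trend or robust prior, 3 with the acinar score as a covariate, and 1 to 58 with each library left out in turn (58 without control 2). Same-numbered libraries did not deviate together (r = -0.14, -0.04, -0.10 and 0.03), and with the replicate number as a block 3 genes were called, none of them among the 7. The Gcg, Ttr, Irx2 and Pyy differences kept their sign under all 19 alternatives. Gcg ranged from -0.57 to -0.24 with a library left out. The Sox9 difference turned positive, to 0.064 with the same total, 0.0044 with the same total without hormone and acinar genes and 0.078 with the acinar score, and ranged from -0.32 to 0.27 with a library left out. Ppy turned to 0.073, 0.012 and 0.046 in the same order, and Sst to 0.013 with the same total and 0.21 with the acinar score. With a library left out, differences of both signs arose for Ppy (-0.071 to 0.029), Slc7a2 (-0.023 to 0.094), Sst (-0.27 to 0.051) and Ins1 (-0.25 to 0.033), and for the ratios of Gcg to insulin (-0.42 to 0.067), Sst to insulin (-0.11 to 0.34), Sst to Ppy (-0.20 to 0.047) and Irx2 to Gcg (-0.094 to 0.25). Of the 13 ratios 0 to 1 had an unadjusted permutation p under 0.05 with a library left out. Scaled to the same total, 2 of 21 pairs passed in place of 0. The causes were not tested. Irx2 rests on 40.3 to 92.9 estimated reads a library, which limits its precision.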
